A study of Mus musculus with 24 samples.

Results

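The late neutrophil genes S100a8, S100a9, Camp, Ltf, Ngp, Lcn2, Mmp8, Mmp9, Cxcr2 and Itgam were examined, 10 of the 21938 protein-coding genes of the GENCODE annotation of the mouse genome build mm10. They were listed by name as genes of secondary granules and of mature neutrophils, a rule that uses no measured value. Every peak and every listed site inside a gene or within 30 kb of either end was taken, which gave 38 to 82 peaks out of the 22156 to 70455 of a list, and 4 of 11927, 26 of 17311 and 64 of 50928 sites in the 3 site tables. The data are ATAC-seq, in which the transposase Tn5 cuts accessible DNA and tags it for sequencing, from 24 libraries of blood stem and progenitor cells sorted from the bone marrow of C57BL/6 mice. LT-HSCs (haematopoietic stem cells that repopulate long term), CMPs (common myeloid progenitors) and GMPs (granulocyte-monocyte progenitors) without a time label had 2 libraries each of Daxx-WT (Daxx +/+ Cre +/-) and Daxx-KO (Daxx F/F Cre +/-). LT-HSCs at 3 dpi (days after induction) had 2 Daxx-WT and 3 Daxx-KO libraries, and KLS cells (Lin- cells with both c-Kit and Sca-1) taken 3 wpi (weeks after induction) had 2 Daxx-WT, 3 Daxx-KO and 2 DKO libraries (Daxx F/F, with Pu.1 F/F and Cre +/-). Daxx encodes a chaperone of the histone variant H3.3, and Pu.1 is the myeloid transcription factor encoded by Spi1. All groups, Daxx-WT included, carried Cre. The study's methods name the ubiquitous, tamoxifen-inducible Rosa26CreERT2 for the LT-HSC, CMP and GMP sets. They name the interferon-responsive Mx1Cre, induced by pI:pC, for Daxx-KO and DKO mice, and Mx1Cre for the KLS cells at 3 wpi used for RNA-seq. The labels name no Cre line and give no age. No library lacked Pu.1 alone, so the effects of losing Pu.1 and of losing it together with Daxx cannot be told apart.

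Neutrophils fill their granules in the order in which the granules are made. Enzymes such as myeloperoxidase and elastase are stored at the promyelocyte stage, secondary granule proteins such as lactoferrin and the cathelicidins at the myelocyte stage, and gelatinase and the surface receptors of the mature cell come last. The late genes are switched on by C/EBP factors, chiefly C/EBP-epsilon, and Pu.1 binds the regulatory elements of many myeloid genes at earlier stages. None of these products is characteristic of stem cells. The antibody mixture that defined lineage-negative cells here contained CD11b, the product of Itgam, and Gr-1, which granulocytes display. How far granulocytes were kept out of each group was not tested.

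The labels were checked at the deleted genes. Each of the 3 site tables listed a site over Daxx with lower values in the knockout group, with a log2 difference of -1.79 at 3 dpi. KLS cells had such a site over each of 2 stretches of Daxx, with differences of -2.02 and -2.72 for Daxx-KO and of -1.72 and -2.87 for DKO, and a further Daxx site of 600 bp in DKO had a difference of 0.94. The LT-HSC, CMP and GMP groups without a time label have no site table, and the deletion was not checked there. A site of 1000 bp within Spi1 had a log2 difference of -3.37 in DKO cells, while the other 4 listed Spi1 sites of that table had higher values, with differences of 1.19 to 1.38. Of the marker genes of LT-HSCs, Hlf and Mecom had a promoter peak in all 11 lists, and Procr and Slamf1 had one in both LT-HSC lists without a time label and in the Daxx-KO but not the Daxx-WT list at 3 dpi. Procr also had one in Daxx-WT CMPs and both GMP lists, and Slamf1 in both CMP lists. All 5 marker genes of GMPs (Mpo, Elane, Prtn3, Ctsg and Csf1r) had one in both GMP lists. Mpo and Prtn3 also had one in both LT-HSC lists without a time label, and all 3 erythroid markers had one in both GMP lists. Many of these markers thus did not separate the sorted cells by promoter peaks. Only 2 GMP markers had a promoter peak in each of the 3 KLS lists (Mpo and Prtn3 in Daxx-WT and Daxx-KO, Prtn3 and Ctsg in DKO). Of 3 erythroid markers 1 to 3 and of 5 lymphoid markers 1 to 3 had a promoter peak, depending on the list. The libraries in the site tables held on average 4.21 to 16 reads per window, with the DKO libraries at 9.98 and 16 against 8.35 and 7.45 in their Daxx-WT partners.

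The promoters of the late neutrophil genes fell into groups that opened in different cells. Those of S100a8, S100a9, Camp, Ngp, Lcn2 and Mmp8 had no peak in any LT-HSC list or in the Daxx-WT and Daxx-KO KLS lists and had one in both GMP lists. Ltf, Mmp9 and Itgam already had promoter peaks in LT-HSCs, those of Mmp9 at internal start sites only. Itgam lacked one in Daxx-WT LT-HSCs at 3 dpi, and the chemokine receptor gene Cxcr2 had none in any of the 11 lists. S100a8, S100a9, Camp, Ngp and Lcn2 also had a promoter peak in DKO KLS cells, where Ltf, Mmp9 and Itgam had none. In bulk libraries a larger share of cells with open promoters and a greater opening in each cell cannot be told apart, and the part of cell composition in these values was not tested.

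Counted per list, a promoter peak (within 1000 bp of any annotated start site) was present for 3 of the 10 genes in Daxx-WT and 3 in Daxx-KO LT-HSCs, against 67.8% and 68.9% of all protein-coding genes. CMPs had 6 in Daxx-WT and 5 in Daxx-KO, against 65% and 61.7%. GMPs had 9 and 8, against 62.9% and 60.4%. At 3 dpi, LT-HSCs had 2 in Daxx-WT and 3 in Daxx-KO, against 62.3% and 64.5%. KLS cells had 3 in Daxx-WT, 3 in Daxx-KO and 5 in DKO, against 58.7%, 62% and 51.1%. There is 1 list per group, so presence is a description with no replicate error.

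**Figure D1:**
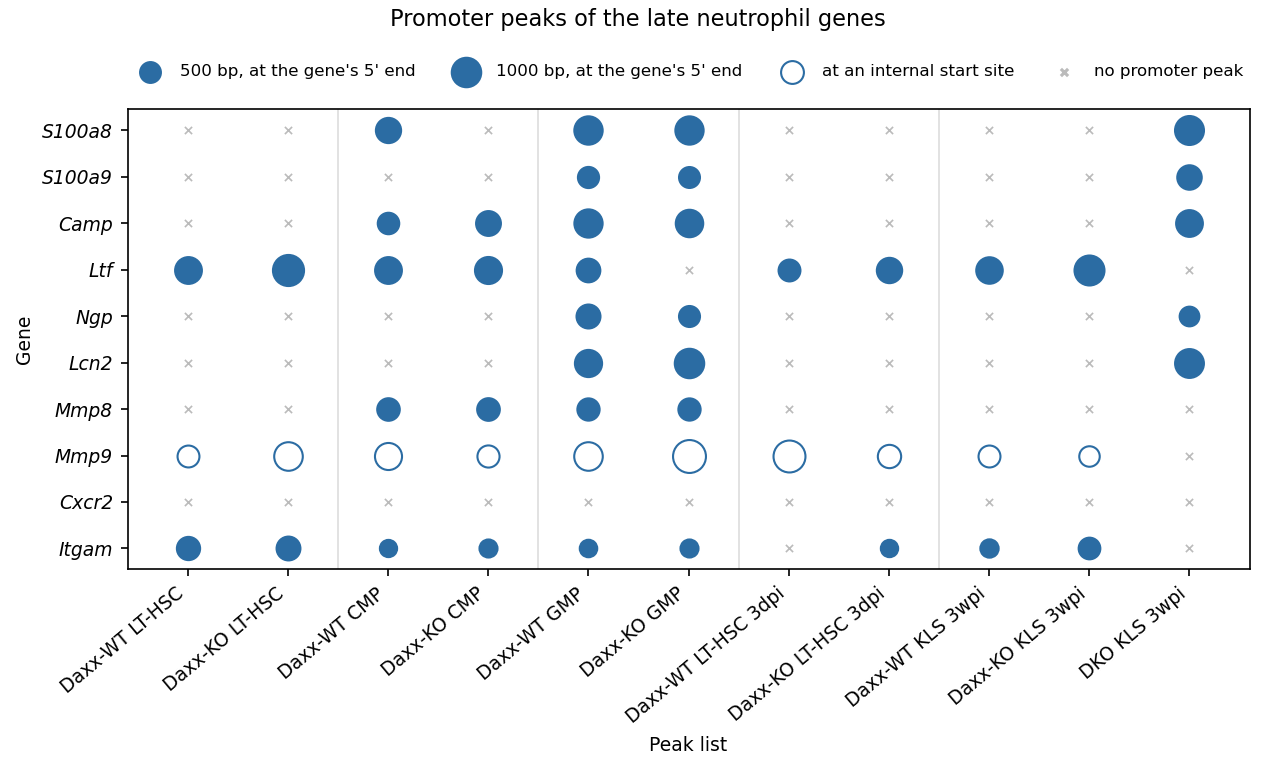
Promoter peaks of the 10 late neutrophil genes (rows) in the 11 peak lists (columns); filled circles are peaks at the 5′ end of the gene, open circles peaks at an internal start site, circle size is peak width in bp and crosses mark no promoter peak. S100a8, S100a9, Camp, Ngp and Lcn2 have circles in the GMP columns and in the DKO column and none in the LT-HSC or other KLS columns, and Cxcr2 has none at all.

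Between genotypes the promoter pattern differed most for DKO cells. A promoter peak in the DKO list and none in the Daxx-WT KLS list was found for 5 of the 10 genes, against 199 of 21938 protein-coding genes (0.907%). Of these 199 genes, 166 had a promoter peak in Daxx-WT GMPs, and 35 of them had none in Daxx-WT LT-HSCs or Daxx-KO KLS cells; S100a8, S100a9, Camp, Ngp and Lcn2 were among the 35. At a stricter IDR score of at least 540, the DKO promoter peaks of S100a8, Camp and Lcn2 remained and those of S100a9 and Ngp did not. The opposite pattern, a peak in Daxx-WT KLS and none in DKO, held for 3 genes (Ltf, Mmp9 and Itgam), against 8.45%. In progenitors, the promoter peak of S100a8 was in the Daxx-WT CMP list and not in the Daxx-KO CMP list, and that of Ltf was in Daxx-WT GMPs and not in Daxx-KO GMPs. Along normal differentiation, 6 genes (S100a8, S100a9, Camp, Ngp, Lcn2 and Mmp8) had a promoter peak in Daxx-WT GMPs and none in Daxx-WT LT-HSCs, against 1.75%, and no gene had the reverse, against 6.65%.

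The site tables list the regions that passed the authors' own comparison of a pair of groups, with a scaled read number per library. In LT-HSCs at 3 dpi only 3 of the 10 genes had a listed site. In Daxx-KO KLS cells 9 of the 10 had a site with lower values, and only Ltf and Mmp8 had one with higher values. In DKO KLS cells all 10 had a site with higher values than Daxx-WT, and 6 had one with lower values.

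At 3 dpi, 2 of 4 sites had higher values in Daxx-KO and 2 lower, against 29.1% and 70.9% of all sites of the table. By gene, 1 of the 10 had a higher site within 30 kb and 2 a lower one, against 19.7% and 36.4% of all genes, and none had a promoter site in either direction, against 3% and 4.3%. In Daxx-KO KLS cells, 2 of 26 sites had higher and 24 lower values, against 19.1% and 80.9%. By gene, 2 had a higher and 9 a lower site, against 15.8% and 53.7%, and 1 (Mmp8) had a higher and 4 (S100a9, Camp, Ngp and Itgam) a lower promoter site, against 1.98% and 8.71%. In DKO cells, 50 of 64 sites had higher and 14 lower values, against 72.1% and 27.9%. By gene, 10 had a higher and 6 a lower site, against 66.6% and 48.5%, and 7 (all but Ltf, Mmp8 and Cxcr2) had a higher and 2 (Mmp9 and Itgam) a lower promoter site, against 14.6% and 15.1%. The shares of sites in each direction lay near those of the DKO table, while in Daxx-KO KLS cells a larger share of the sites at the 10 genes had lower values than in the table. That rests on 26 sites, some close together, and was not tested. Of them 3.85% overlapped a peak of either group, against 20.1% of the table. The Daxx-KO libraries held 8.13, 4.54 and 5.59 reads per window, against 8.36 and 7.49 in Daxx-WT.

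The difference at each site was tested with limma on log2(scaled reads + 1), two-sided, with Benjamini-Hochberg adjustment over all windows tested by the authors. Because the sites had been selected on these libraries, the test is not independent of the selection, and all 4, 26 and 64 sites had groups that did not overlap, as had 99.5%, 99.6% and 100% of all sites. Of the sites at 3 dpi 0 of 4, and of those in Daxx-KO KLS cells 0 of 26, passed an adjusted p of 0.05 in either direction (0% of all sites higher and 0% lower in each table), while 3 and 26 of them had an unadjusted p under 0.05, as had 11454 and 16749 of all sites. The smallest limma adjusted p of any site was 0.301 at 3 dpi and 0.284 in Daxx-KO KLS cells. The sites over the deleted Daxx gene had these same values. Not passing therefore does not set a site apart in either table. In DKO cells 48 of 64 sites rose and 9 fell, against 67.3% and 14.9% of all sites. The median log2 difference of the sites was -0.41 for the 3 dpi table, -1.29 for Daxx-KO and 1.33 for DKO, against -1.05, -1.27 and 1.29 over all sites of the tables. The DKO calls depended on how the libraries were scaled. With reads scaled to the mean number per window, which shifted the median of all DKO sites by -0.67 on the log2 scale, every site kept its direction but 3 rose and 14 fell, and of all called sites 19.4% were higher, against 81.8% with the authors' scaling. Without either DKO library 0 of the 64 sites passed, and without Daxx-WT replicate 1, 28 rose and 3 fell. In the DKO table limma shrank all site variances to 1 common value, so every log2 difference there has the same standard error (SE) of 0.36.

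**Figure D2:**
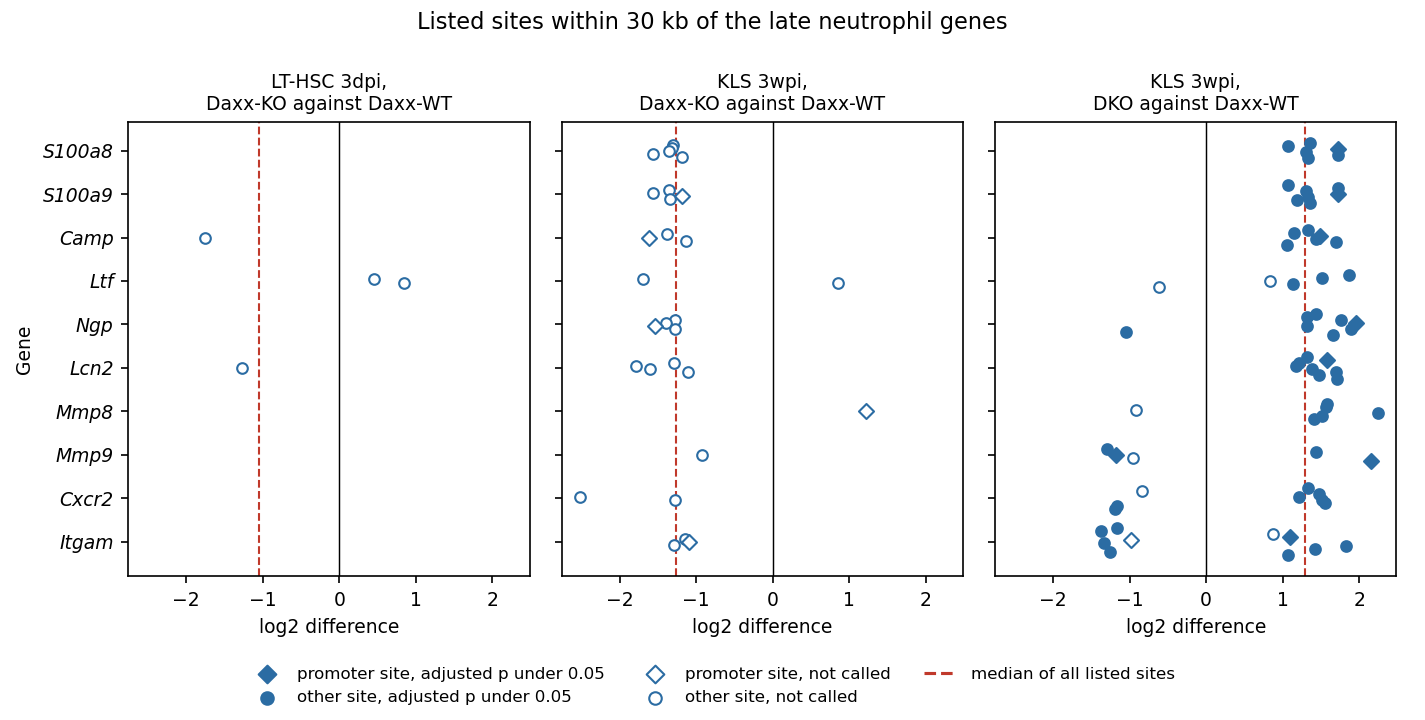
The log2 difference (x axis) of each listed site within 30 kb of a late neutrophil gene (y axis), in the 3 comparisons; diamonds are promoter sites, filled symbols have an adjusted p under 0.05 and the red dashed line is the median of all listed sites of that table. Sites at the 10 genes lie around -1.29 in Daxx-KO KLS cells, with Ltf and Mmp8 alone above 0, and around 1.33 in DKO KLS cells, where Itgam holds the most sites below 0, 5 of 10.

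S100a8 (chromosome 3, 90668978 to 90670035, plus strand) and S100a9 (chromosome 3, 90692632 to 90695721, minus strand) encode the subunits of calprotectin, an abundant protein of the neutrophil cytosol. They lie next to each other, so several peaks and sites fall within 30 kb of both. Their promoter peaks covered exon sequence at the 5′ end. That of S100a8 was 732 bp wide in Daxx-WT CMPs, 925 and 921 bp in Daxx-WT and Daxx-KO GMPs, and 966 bp in DKO KLS cells, where its fold enrichment of 4.55 was at the 41.7 percentile of the list. That of S100a9 was 515 and 505 bp wide in the GMP lists and 690 bp in DKO cells, with a fold enrichment of 5.56 at the 60.9 percentile. Further peaks followed the promoters. A peak 9625 to 10215 bp downstream of the S100a8 start was found in both GMP lists and in DKO cells, and 1 at 17618 to 18234 bp in these lists and Daxx-WT CMPs. Peaks at -9710 to -8968 bp from S100a8 and at -7129 to -6584 bp from S100a9 were in Daxx-WT GMPs and DKO cells, and not in Daxx-KO GMPs. No LT-HSC list, and neither of the Daxx-WT and Daxx-KO KLS lists, held any of these 6 peaks.

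**Figure D3:**
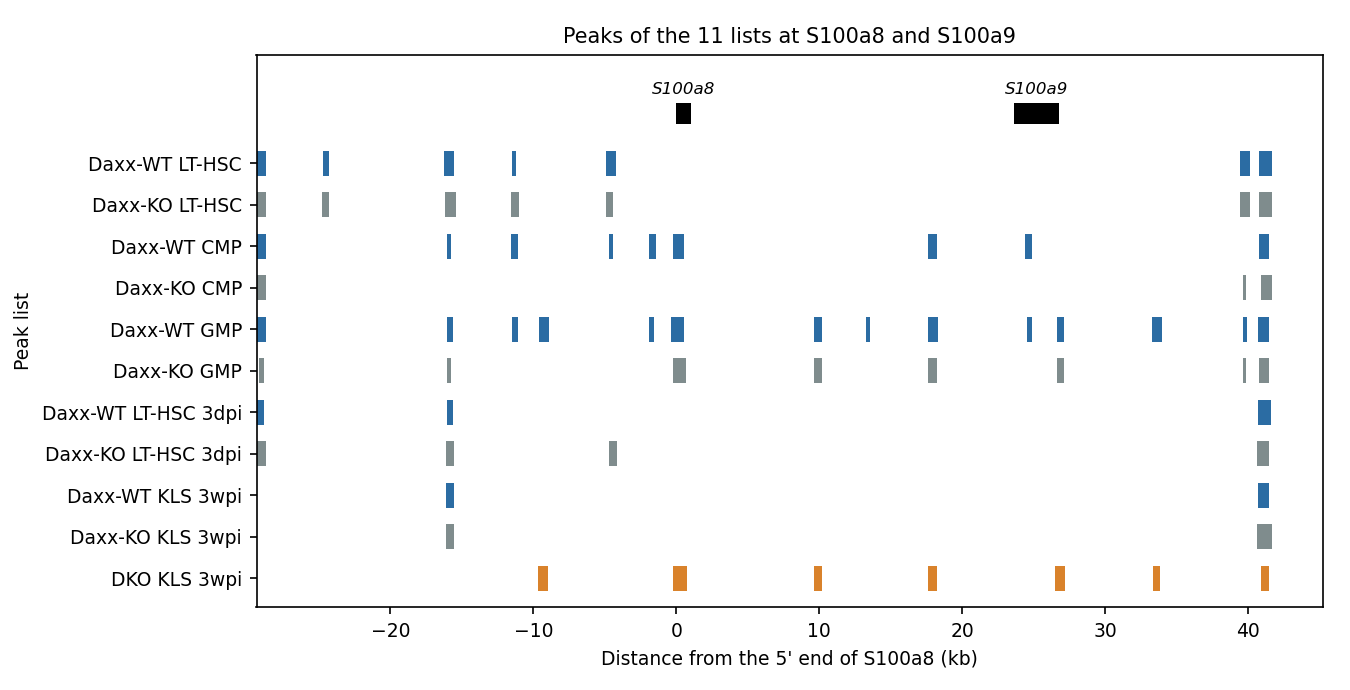
Peaks of the 11 lists (rows) around S100a8 and S100a9, by distance in kb from the 5′ end of S100a8; black boxes are the genes and coloured boxes the peaks, blue for Daxx-WT, grey for Daxx-KO and orange for DKO. The 5 DKO peaks from upstream of S100a8 to the S100a9 promoter all have a counterpart in the Daxx-WT GMP row, and the LT-HSC and other KLS rows have no peak between the genes.

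The sequences under these peaks are shown because they carry the S100a8 and S100a9 regions that DKO KLS cells share with GMPs. The promoters are from the RefSeq promoter table (GRCm38.p6, the mm10 build), kept to the bases upstream of the GENCODE 5′ end, and the intergenic windows are 200 bases around the DKO summits, on the plus strand. Capitals mark matches on either strand to the C/EBP letters TTGCNNAA and to the letters GAGGAA at the core of sites for Pu.1 and related ETS factors.
S100a8 promoter, chr3:90668821-90668977, plus strand: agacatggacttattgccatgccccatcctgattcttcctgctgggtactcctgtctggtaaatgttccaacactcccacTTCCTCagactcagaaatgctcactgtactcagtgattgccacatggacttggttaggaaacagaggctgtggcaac
S100a9 promoter, chr3:90695722-90695971, minus strand: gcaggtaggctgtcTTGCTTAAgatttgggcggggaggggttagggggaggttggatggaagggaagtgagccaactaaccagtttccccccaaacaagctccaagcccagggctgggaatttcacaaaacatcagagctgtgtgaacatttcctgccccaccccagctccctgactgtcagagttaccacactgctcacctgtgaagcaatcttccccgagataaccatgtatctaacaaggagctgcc
S100a8 downstream peak, chr3:90678743-90678942: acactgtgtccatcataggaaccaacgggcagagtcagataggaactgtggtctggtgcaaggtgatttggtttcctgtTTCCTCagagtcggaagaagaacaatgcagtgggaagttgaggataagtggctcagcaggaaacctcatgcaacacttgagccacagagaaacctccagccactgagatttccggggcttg
S100a8 second downstream peak, chr3:90686932-90687131: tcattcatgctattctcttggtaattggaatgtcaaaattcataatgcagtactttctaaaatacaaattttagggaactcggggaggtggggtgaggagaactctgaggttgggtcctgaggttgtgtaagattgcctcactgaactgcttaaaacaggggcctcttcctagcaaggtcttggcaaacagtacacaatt
The S100a8 promoter and the nearer downstream window hold a TTCCTC, the reverse complement of GAGGAA, the S100a9 promoter holds a C/EBP match, and the second downstream window holds neither.

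In DKO cells all 6 sites within 30 kb of S100a8 and all 7 within 30 kb of S100a9 rose, several of them shared by both genes. At the S100a8 promoter site (173 to 872 bp), the DKO libraries had 81.7 and 83.4 scaled reads and the Daxx-WT libraries 16.0 and 36.2 (log2 difference 1.73, adjusted p = 8.3e-05). The S100a9 promoter site (-779 to 570 bp) had 211 and 133 against 35.5 and 70.2 scaled reads (log2 difference 1.73, adjusted p = 9e-05). At both promoter sites the groups did not overlap, as at 50909 of the 50928 listed DKO sites. The Daxx-WT replicates differed from each other more than the DKO replicates did for S100a8. The upstream region of S100a8 at -9727 to -8078 bp had 162 and 154 against 47.0 and 79.0 scaled reads (log2 difference 1.36, adjusted p = 0.00281). A site at -5027 to -4428 bp had 50.9 and 66.5 against 31.9 and 23.0 scaled reads (log2 difference 1.07, adjusted p = 0.0317). The downstream site at 9923 to 10522 bp had 46.7 and 37.5 against 13.3 and 19.7 scaled reads (log2 difference 1.31, adjusted p = 0.00419). These 3 sites, 2 of which overlapped a DKO peak, had smaller differences than the promoter. Upstream of S100a9, a site at -4229 to -3380 bp had 38.2 and 64.6 against 18.6 and 19.7 scaled reads (log2 difference 1.33, adjusted p = 0.00365). The next, at -7429 to -6380 bp, had 80.6 and 78.7 against 28.4 and 41.7 scaled reads (log2 difference 1.19, adjusted p = 0.0125). With reads scaled to the mean per window the promoter differences were 1.06 and 1.04, with adjusted p = 0.199 and 0.303.

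In Daxx-KO KLS cells the listed sites at S100a8 and S100a9 had lower values, and none passed the test. The S100a9 promoter site (-329 to 320 bp) had 17.8, 11.4 and 11.3 scaled reads in Daxx-KO against 20.1 and 48.1 in Daxx-WT (log2 difference -1.18 ± 0.42 SE, adjusted p = 0.548). The gap between the groups rests here on Daxx-WT replicate 2, since replicate 1 stood just above the highest Daxx-KO library. Within S100a9, at 2521 to 3320 bp, the values were 12.2, 8.75 and 15.1 against 27.4 and 49.3 (log2 difference -1.57 ± 0.37 SE, adjusted p = 0.284), and at -7029 to -6230 bp they were 13.4, 7.87 and 15.1 against 27.4 and 35.5 (log2 difference -1.34 ± 0.35 SE, adjusted p = 0.284). Near S100a8, the site at -9277 to -8628 bp had 10, 15.8 and 12.2 against 25.5 and 41.3 scaled reads (log2 difference -1.31 ± 0.34 SE, adjusted p = 0.284). The site at 9073 to 9722 bp had 8.91, 8.75 and 10.3 against 23.7 and 27.5 scaled reads (log2 difference -1.36 ± 0.28 SE, adjusted p = 0.284). None of these sites overlapped a peak of either KLS list, and the 3 dpi table held no site at S100a8 or S100a9.

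Camp (chromosome 9, 109847379 to 109849617, minus strand) encodes the cathelicidin precursor of secondary granules, and Ngp (chromosome 9, 110419747 to 110423012, plus strand) encodes a granule protein of the same cathelicidin-related family. The Camp promoter peak appeared earlier than that of Ngp along the lineage. It was 532 and 710 bp wide in Daxx-WT and Daxx-KO CMPs, 918 and 869 bp in GMPs and 825 bp in DKO KLS cells, with a fold enrichment of 5.41 at the 58.6 percentile. The Ngp promoter peak was absent from CMPs, 661 and 508 bp wide in the GMP lists, and 447 bp in DKO cells, where its fold enrichment of 2.19 placed it at the 0.217 percentile, among the weakest peaks of that list. Upstream of Camp, the peaks at -5143 to -4615, -12174 to -11481 and -17139 to -16728 bp were in the DKO list and no other, as was a peak at -4592 to -3868 bp from Ngp.

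The promoters of both genes are shown for the same reason as those of S100a8 and S100a9, with the same source and capitals.
Camp promoter, chr9:109849618-109849706, minus strand: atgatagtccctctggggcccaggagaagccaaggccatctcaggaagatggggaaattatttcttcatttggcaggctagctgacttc
Ngp promoter, chr9:110419558-110419746, plus strand: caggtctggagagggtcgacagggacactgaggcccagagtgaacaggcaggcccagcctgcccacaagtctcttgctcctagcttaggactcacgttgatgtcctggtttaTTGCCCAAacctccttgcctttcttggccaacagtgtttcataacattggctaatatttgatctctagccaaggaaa
The Ngp stretch holds a C/EBP match and the Camp stretch holds neither set of letters.

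Camp and Ngp rose in DKO cells. The Ngp promoter site was the longest at any of the genes, from -996 to 5653 bp, and had 685 and 622 scaled reads in DKO against 130 and 215 in Daxx-WT (log2 difference 1.96, adjusted p = 6.9e-06). A second broad site, at -5696 to -1447 bp, had 382 and 413 against 101 and 134 scaled reads (log2 difference 1.76, adjusted p = 6.2e-05). Together they covered the whole Ngp gene and the DKO peak upstream of it. The Camp promoter site (-383 to 816 bp) had 236 and 157 against 52.4 and 87.7 scaled reads (log2 difference 1.49, adjusted p = 0.00082). At -5483 to -4084 bp from Camp, the values were 135 and 118 against 33.7 and 62.5 (log2 difference 1.44, adjusted p = 0.00139). Downstream of Camp, a site at 2367 to 3316 bp had 73.2 and 66.5 against 24 and 39.5 scaled reads (log2 difference 1.15, adjusted p = 0.0163). Every DKO library was above both Daxx-WT libraries at these sites. That holds little weight, since the groups did not overlap at 50909 of the 50928 listed DKO sites. A site at 10117 to 10716 bp, in an intron of the neighbouring gene Nme6, had 27.6 and 35.6 against 10.7 and 13.2 scaled reads (log2 difference 1.33, adjusted p = 0.00355). Beyond Ngp, sites over Klhl18 had 28.6 and 51.5 against 12.4 and 17.6 scaled reads at 8904 to 9653 bp (log2 difference 1.32, adjusted p = 0.00388) and 36.0 and 51.5 against 8.87 and 13.2 at 12204 to 12953 bp (log2 difference 1.90, adjusted p = 1.3e-05). The last of these stayed called with reads scaled to the mean per window (log2 difference 1.24, adjusted p = 0.0359), while the Camp and Ngp promoter sites had adjusted p = 0.61 and 0.0555. Of the 8 sites at Ngp, 7 rose and 1 fell. The latter, in a Klhl18 intron at 20804 to 21653 bp, had 36.0 and 43.1 against 99.4 and 69.1 (log2 difference -1.05, adjusted p = 0.0371). It also fell with that scaling (log2 difference -1.74, adjusted p = 0.00556).

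In Daxx-KO KLS cells the Camp promoter site (-633 to 766 bp) had 39.0, 15.8 and 27.3 scaled reads against 62.9 and 104 in Daxx-WT (log2 difference -1.62 ± 0.42 SE, adjusted p = 0.284). The Ngp promoter site (-246 to 553 bp) had 17.8, 18.4 and 8.47 against 28.3 and 65.3 (log2 difference -1.54 ± 0.46 SE, adjusted p = 0.321). Daxx-WT replicate 2 again stood well above replicate 1 at both promoters, and neither difference passed the test. A site at 9454 to 10253 bp from Ngp had 14.5, 8.75 and 9.41 against 28.3 and 26.4 scaled reads (log2 difference -1.28 ± 0.32 SE, adjusted p = 0.284). At 3 dpi the only site at either gene lay 18867 to 19566 bp from the Camp start, at the promoter of 3000002C10Rik, with 10.1, 3.82 and 10.6 scaled reads in Daxx-KO against 33.8 and 22.5 (log2 difference -1.75 ± 0.41 SE, adjusted p = 0.303).

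**Figure D4:**
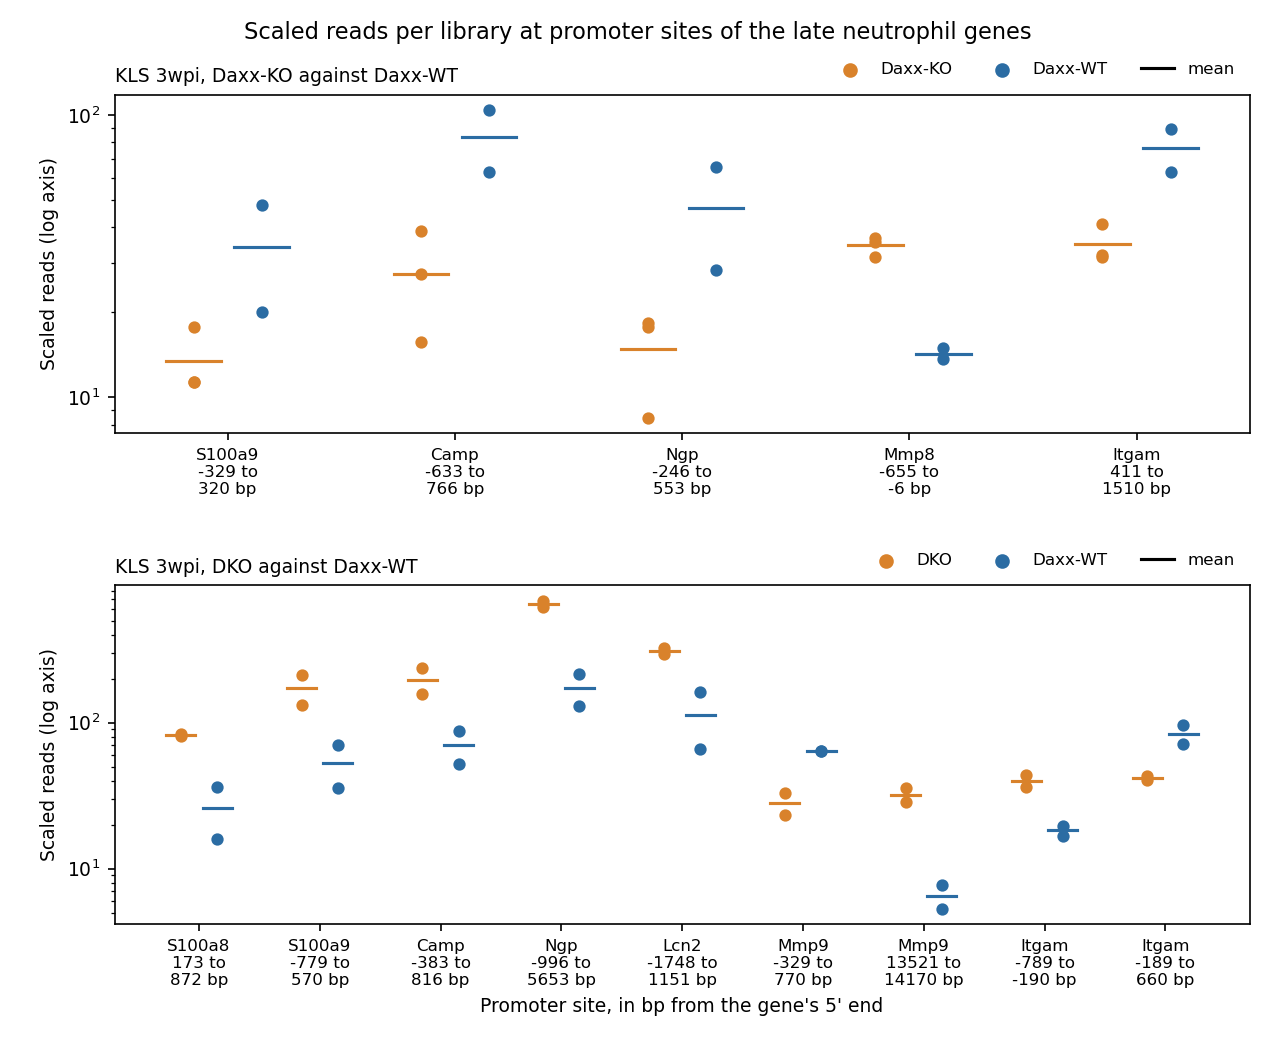
Scaled reads per library (log axis) at the listed promoter sites of the late neutrophil genes in KLS cells at 3 wpi, Daxx-KO against Daxx-WT (upper panel) and DKO against Daxx-WT (lower panel); points are libraries, lines are group means and the x axis gives each site's distance in bp from the 5′ end. In the lower panel the DKO points of S100a8, S100a9, Camp, Ngp and Lcn2 lie above the Daxx-WT points, and in the upper panel Mmp8 alone has Daxx-KO points above.

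Ltf (chromosome 9, 111019271 to 111042767, plus strand) encodes the iron-binding lactoferrin, and Lcn2 (chromosome 2, 32384633 to 32388252, minus strand) encodes lipocalin 2, which sequesters bacterial siderophores. These secondary granule genes had opposite promoter patterns. Ltf had a peak over its 5′ end in 9 of the 11 lists and lacked it in Daxx-KO GMPs and in DKO KLS cells. Its widths ranged from 551 bp in Daxx-WT LT-HSCs at 3 dpi to 1113 bp in Daxx-KO LT-HSCs without a time label. In KLS cells its fold enrichment was 4.69 (the 28.8 percentile) in Daxx-WT and 7.13 (the 62.4 percentile) in Daxx-KO. The Lcn2 promoter peak was in the GMP lists, at 850 and 999 bp, and in DKO cells, at 958 bp with a fold enrichment of 5.7 at the 63.1 percentile. Lcn2 thus had the same set of lists as S100a9 and Ngp, and each of these genes shared it with 11 other protein-coding genes, counting the other two.

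Lcn2 rose at its promoter in DKO cells. The site at -1748 to 1151 bp had 327 and 294 scaled reads against 65.7 and 161 in Daxx-WT (log2 difference 1.58, adjusted p = 0.00037), and the Daxx-WT libraries stood further apart than the DKO libraries. A site at -5498 to -4199 bp had 134 and 146 against 59.5 and 59.2 (log2 difference 1.22, adjusted p = 0.00929), and another at 10502 to 11101 bp, over exons of Ciz1 and 1110008P14Rik, had 27.6 and 36.5 against 13.3 and 11 (log2 difference 1.32, adjusted p = 0.00385). With reads scaled to the mean per window the promoter site had adjusted p = 0.477. Lcn2 had no promoter site in the Daxx-KO KLS table. A site at 4452 to 5201 bp, behind the gene, had 28.9, 14.0 and 22.6 against 49.3 and 43.6 scaled reads (log2 difference -1.11 ± 0.36 SE, adjusted p = 0.401). At 3 dpi a site at -28998 to -28049 bp, at the promoter of Slc25a25, had 16.5, 18.1 and 34.8 against 64.2 and 46.0 (log2 difference -1.27 ± 0.35 SE, adjusted p = 0.372).

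Ltf differed from Lcn2 in having no listed promoter site in any table. In DKO cells its upstream flank rose. At -2520 to -1271 bp, where DKO cells had a peak found in no other list, the values were 87.0 and 91.8 against 25.7 and 36.2 (log2 difference 1.52, adjusted p = 0.00066). At -5270 to -4621 bp they were 27.6 and 44.0 against 8.87 and 8.77 (log2 difference 1.87, adjusted p = 1.9e-05), and this site stayed called with reads scaled to the mean per window (log2 difference 1.21, adjusted p = 0.0369). A peak at 26717 to 27573 bp, behind the gene, was present in every list except DKO. A site at 27580 to 28229 bp in Daxx-KO KLS cells had 71.3, 84.0 and 70.5 against 45.6 and 36.7 scaled reads (log2 difference 0.86 ± 0.29 SE, adjusted p = 0.474). It overlapped a Daxx-KO peak that the Daxx-WT KLS list lacked. At 3 dpi the Ltf sites lay beyond the gene, and the higher of them, at 39330 to 39929 bp, had 50.5, 66.8 and 57.0 against 34.9 and 29.1 (log2 difference 0.84 ± 0.24 SE, adjusted p = 0.401). The other, at 37730 to 38529 bp at the promoter of Ccrl2, had 262, 369 and 225 against 201 and 207 (log2 difference 0.45 ± 0.27 SE, adjusted p = 1).

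Mmp8 (chromosome 9, 7558456 to 7568485, plus strand) and Mmp9 (chromosome 2, 164940780 to 164955850, plus strand) encode the neutrophil collagenase of secondary granules and gelatinase B of tertiary granules. Mmp8 had a promoter peak in the CMP and GMP lists, 570 to 591 bp wide, and in no list of LT-HSCs or KLS cells. It was the only gene of the 10 with a promoter site of higher values in Daxx-KO KLS cells, and its promoter is shown for that reason, from the same table.
Mmp8 promoter, chr9:7558179-7558428, plus strand: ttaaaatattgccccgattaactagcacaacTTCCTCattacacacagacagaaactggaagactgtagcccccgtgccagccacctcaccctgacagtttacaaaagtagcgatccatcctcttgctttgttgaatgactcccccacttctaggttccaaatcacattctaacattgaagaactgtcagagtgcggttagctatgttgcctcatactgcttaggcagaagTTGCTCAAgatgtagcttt
The stretch holds a C/EBP match near its end and a TTCCTC near its beginning.

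At the Mmp8 promoter site (-655 to -6 bp) the Daxx-KO KLS libraries had 35.6, 31.5 and 36.7 scaled reads and the Daxx-WT libraries 13.7 and 14.9 (log2 difference 1.22 ± 0.28 SE, adjusted p = 0.284). The replicates of each group lay close together and the groups did not overlap, as at 99.6% of all sites of that table. No site of the table passed the test, the sites over the deleted Daxx gene included. No peak was called there in either KLS list. In DKO cells Mmp8 had no listed promoter site, and sites in and behind the gene rose. The site at 18695 to 19694 bp, over Mmp27, had 124 and 75.0 scaled reads against 10.7 and 35.1, the largest positive difference at the 10 genes (log2 difference 2.25, adjusted p = 1.6e-07). A peak of 606 bp in DKO cells lay there, found also in both GMP lists and in no other. Within Mmp8, at 1845 to 2544 bp, the values were 35.0 and 42.2 against 9.76 and 15.4 (log2 difference 1.57, adjusted p = 0.00041), and at -9905 to -9306 bp they were 25.4 and 34.7 against 7.10 and 12.1 (log2 difference 1.58, adjusted p = 0.00038). The Mmp27 promoter, at 13945 to 15044 bp, went the other way, with 107 and 68.4 against 168 and 158 scaled reads (log2 difference -0.92, adjusted p = 0.103), and its peak was present in every list except DKO. With reads scaled to the mean per window none of the 3 higher sites passed (adjusted p = 0.0874, 0.22 and 0.209) and the Mmp27 promoter fell (adjusted p = 0.0175).

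Mmp9 promoter peaks lay at internal start sites, about the middle and the far end of the gene, and never at the 5′ end. The peak nearest the end of the gene, at 12118 to 12928 bp in Daxx-WT KLS cells, was in every list except DKO, and a narrower one at 7025 to 7578 bp was in 4 lists, the LT-HSC lists without a time label, Daxx-KO LT-HSCs at 3 dpi and Daxx-WT KLS cells. In DKO cells the sites went both ways within the gene. The 5′ end (-329 to 770 bp) fell, with 23.3 and 32.8 scaled reads against 63.9 and 63.6 (log2 difference -1.18, adjusted p = 0.0137). The site at 13521 to 14170 bp rose, with 28.6 and 35.6 against 5.32 and 7.68 (log2 difference 2.15, adjusted p = 5.8e-07). Both stayed called with reads scaled to the mean per window (adjusted p = 0.00312 and 0.00906). An intron site at 1771 to 2570 bp had 119 and 65.6 against 166 and 180 scaled reads (log2 difference -0.96, adjusted p = 0.076). Every list except DKO had a peak over it. An upstream site at -10229 to -9180 bp had 49.8 and 75.0 against 22.2 and 21.9 (log2 difference 1.43, adjusted p = 0.00147). With that scaling the intron site fell (adjusted p = 0.0209) and the upstream site no longer passed (adjusted p = 0.393). Mmp9 had 1 listed site in Daxx-KO KLS cells, at -28229 to -27580 bp at the promoter of Zfp335, with 26.7, 32.4 and 30.1 against 59.3 and 55.0 scaled reads (log2 difference -0.92 ± 0.28 SE, adjusted p = 0.345).

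The surface genes Cxcr2 and Itgam had patterns of their own. Cxcr2 (chromosome 1, 74153989 to 74161246, plus strand) encodes a chemokine receptor through which neutrophils leave the marrow, and Itgam (chromosome 7, 128062640 to 128118491, plus strand) encodes CD11b, the alpha chain of the integrin Mac-1. Cxcr2 had no promoter peak in any list, as had 28.6% of protein-coding genes, among them the late neutrophil genes Ly6g, Itgb2l, Fpr1, Fpr2 and Chil3. A peak at 12794 to 13537 bp, behind the gene, was in Daxx-WT CMPs, both GMP lists and DKO cells, and peaks at 1338 to 1971 and 2296 to 2861 bp, in an intron, were in Daxx-WT CMPs and both GMP lists. Itgam had a promoter peak of 342 to 655 bp at its 5′ end in 9 lists, and lacked it in Daxx-WT LT-HSCs at 3 dpi and in DKO cells. Reads at Itgam also fall on the overlapping model Gm49368, and the signal cannot be divided between them.

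The largest negative difference at the 10 genes was at Cxcr2. The Daxx-KO KLS site over its last exon, at 6912 to 7511 bp, had 8.91, 2.62 and 0.94 scaled reads against 24.6 and 20.6 (log2 difference -2.52 ± 0.59 SE, adjusted p = 0.284). These are the lowest read numbers of any site described here. A site at 13012 to 13661 bp had 10, 10.5 and 11.3 against 31.9 and 22.9 (log2 difference -1.28 ± 0.30 SE, adjusted p = 0.284). In DKO cells the same region, at 12562 to 13911 bp, rose, with 129 and 115 against 44.4 and 37.3 scaled reads (log2 difference 1.56, adjusted p = 0.00044). The comparisons share their Daxx-WT libraries, scaled separately in each table. Upstream of Cxcr2, the DKO values were 141 and 139 against 48.8 and 47.2 at -5288 to -3739 bp (log2 difference 1.52, adjusted p = 0.00063), where a peak found only in the DKO list lay, and 62.6 and 65.6 against 24.9 and 29.6 at -8338 to -7339 bp (log2 difference 1.21, adjusted p = 0.0103). None of these 3 DKO sites passed with reads scaled to the mean per window (adjusted p = 0.304, 0.311 and 1).

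Itgam had as many DKO sites of higher as of lower values, 5 and 5, with a median log2 difference of -0.05. Its promoter was split. Just upstream, at -789 to -190 bp, the DKO libraries had 36.0 and 44.0 scaled reads against 16.9 and 19.7 (log2 difference 1.09, adjusted p = 0.0286), and over the 5′ end, at -189 to 660 bp, they had 40.3 and 43.1 against 96.7 and 71.3 (log2 difference -0.98, adjusted p = 0.0667). With reads scaled to the mean per window the second fell (log2 difference -1.66, adjusted p = 0.00711) and the first no longer passed (adjusted p = 1). The largest DKO fall at the 10 genes lay upstream, at -14289 to -12990 bp, with 65.8 and 83.4 against 188 and 202 (log2 difference -1.38, adjusted p = 0.00223). It stayed called with reads scaled to the mean per window (log2 difference -2.07, adjusted p = 0.00269). Within the gene, the site at 4861 to 6010 bp fell, with 26.5 and 34.7 against 71.0 and 85.5 (log2 difference -1.33, adjusted p = 0.00351). The sites at 38511 to 39110 bp, with 25.4 and 38.4 against 5.32 and 12.1 (log2 difference 1.83, adjusted p = 3e-05), and at 47311 to 48210 bp, with 44.5 and 45 against 10.7 and 24.1 (log2 difference 1.42, adjusted p = 0.00162), rose. The Daxx-KO KLS site at 411 to 1510 bp had 41.2, 31.5 and 32.0 against 62.9 and 89.4 scaled reads (log2 difference -1.09 ± 0.31 SE, adjusted p = 0.3). A site at 40611 to 41210 bp had 12.2, 6.12 and 7.53 against 22.8 and 20.6 (log2 difference -1.29 ± 0.34 SE, adjusted p = 0.285).

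Peaks at the 10 genes were then compared between lists, beside all peaks of the list. DKO cells stood out: 22 of 39 DKO peaks at these genes (56.4%) were absent from Daxx-WT KLS cells, against 21.4% of all DKO peaks, and 21 of 39 (53.8%) were absent from Daxx-KO KLS cells, against 16.8%. The 22 peaks lay at 9 genes, all but Mmp9. Of these 22, 15 (68.2%) had a peak in Daxx-WT GMPs, against 71.8% of all such DKO peaks, and 2 (9.09%) had one in Daxx-WT LT-HSCs, against 32.2%. In the other direction, 21 of 38 Daxx-WT KLS peaks (55.3%) were absent from DKO cells, against 48.4%, and 27 of 45 Daxx-KO KLS peaks (60%), against 59.4%. The DKO list was the shortest, and each share is to be read against that of its own list.

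Between Daxx-KO and Daxx-WT the shares at the 10 genes were nearer to those of their lists. In KLS cells 9 of 45 Daxx-KO peaks (20%) were absent from Daxx-WT, against 31.8%, and 2 of 38 Daxx-WT peaks (5.26%), both at Mmp9, were absent from Daxx-KO, against 8.06%. Those 9 peaks included 1 within Cxcr2, at 5580 to 6016 bp, and 1 within Itgam, at 52511 to 53220 bp. In LT-HSCs the counts were 7 of 63 (11.1%, against 13.9%) and 6 of 62 (9.68%, against 6.78%), and at 3 dpi 8 of 42 (19%, against 24.1%) and 4 of 38 (10.5%, against 8.68%). In CMPs, 2 of 54 Daxx-KO peaks (3.7%) were absent from Daxx-WT, against 6.26%, and 22 of 73 Daxx-WT peaks (30.1%) were absent from Daxx-KO, against 28.5%. The region of S100a8 held 7 of these 22, among them the S100a8 promoter and the downstream peak at 17592 to 18245 bp. In GMPs none of 64 Daxx-KO peaks was absent from Daxx-WT, against 4.55%, and 18 of 82 Daxx-WT peaks (22%) were absent from Daxx-KO, against 27.6%. The counts depended on list length. With partner lists cut to equal length, Daxx-KO and Daxx-WT had 4 and 10 such peaks in LT-HSCs and 12 and 9 in GMPs. They had 3 and 7 at 3 dpi and 6 and 9 in KLS cells. The order turned in each of these cells. In CMPs, with 10 and 11, it did not turn.

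**Figure D5:**
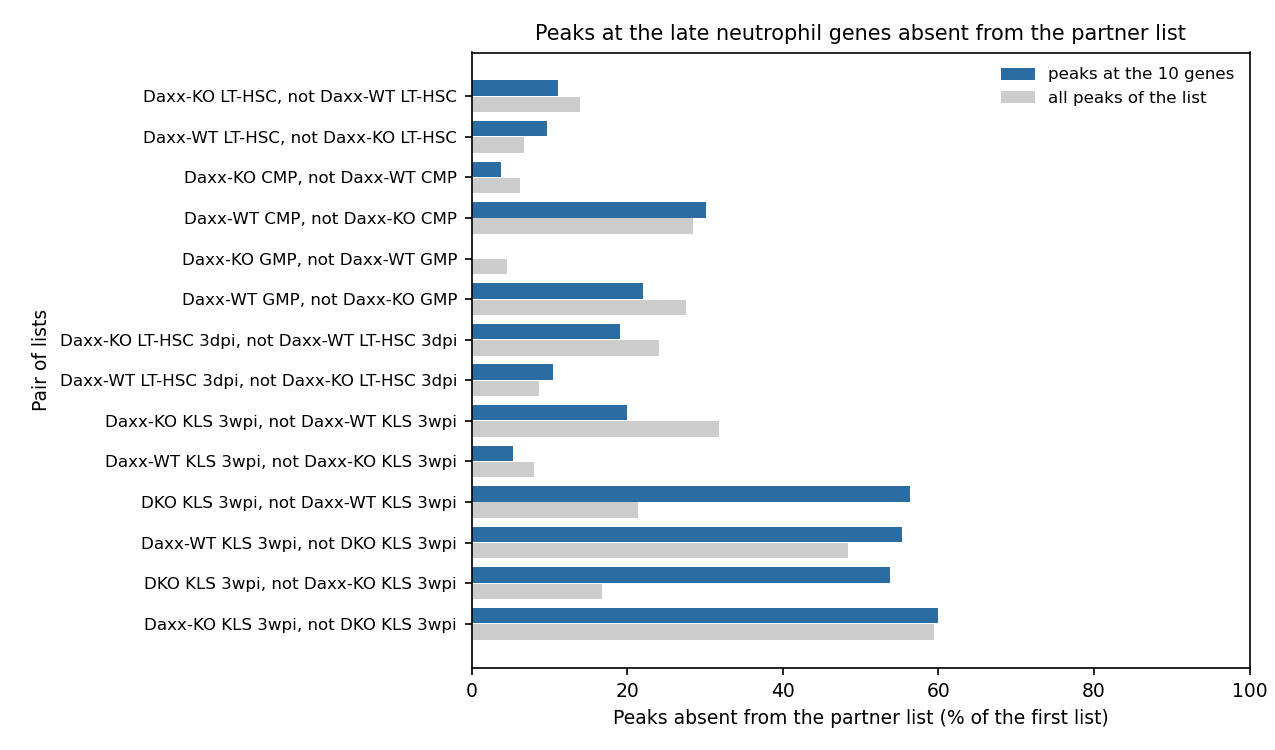
Share of peaks of one list that have no overlapping peak in the partner list (x axis, per cent), for peaks at the 10 late neutrophil genes (blue) and all peaks of the list (grey), in 14 ordered pairs of lists (y axis). The DKO bars stand at 56.4% and 53.8% against 21.4% and 16.8% of all peaks, and in the other Daxx-KO and Daxx-WT pairs the blue bars lie nearer to the grey ones.

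Along differentiation, peaks at the 10 genes were compared between the lists of LT-HSCs and those of CMPs and GMPs, all from groups whose labels give no time. In Daxx-WT cells, 32 of 82 GMP peaks (39%) were absent from LT-HSCs, against 34.4% of all GMP peaks, and 13 of 62 LT-HSC peaks (21%) were absent from GMPs, against 36.7%. In Daxx-KO cells the counts were 22 of 64 (34.4%, against 24.4%) and 21 of 63 (33.3%, against 48.3%), nearly even. From LT-HSCs to CMPs, 21 of 73 CMP peaks were new (28.8%, against 27%) and 10 of 62 LT-HSC peaks were absent (16.1%, against 28.1%) in Daxx-WT. In Daxx-KO, 6 of 54 were new (11.1%, against 16.1%) and 16 of 63 absent (25.4%, against 41.3%). S100a8 had 5 peaks within 30 kb in Daxx-WT LT-HSCs, 8 in Daxx-WT CMPs and 11 in Daxx-WT GMPs, against a median of 5 per protein-coding gene in each of these lists. In Daxx-KO cells it had 5, 1 and 6, against medians of 5, 4 and 4. Peaks at the 10 genes were not especially strong: the median percentile of fold enrichment within a list was 49.5 and 57.9 in Daxx-WT and Daxx-KO KLS cells, 58 and 57.7 in LT-HSCs at 3 dpi and 41.7 in DKO cells.

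The genes whose promoter peaks were present in the same lists included other neutrophil genes. The lists with a Camp promoter peak were also those of Hp, which encodes haptoglobin, and Ctsg, which encodes cathepsin G, among 9 genes with that pattern. Those of Mmp8 were shared with 44 genes, Ms4a3 among them, and those of Mmp9 with Lyz2 among 1098 genes. Only 1 other gene had the pattern of S100a8.

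Other late neutrophil genes, a list of 20, and 5 primary granule genes were set beside the 10. Of the 20, 9 had a promoter peak in Daxx-WT LT-HSCs, 12 in Daxx-WT GMPs, 7 in each of the Daxx-WT and Daxx-KO KLS lists and 9 in DKO cells. Retnlg, Cd177, Pglyrp1 and Hp, which encode granule and surface proteins of neutrophils, had a promoter peak in DKO and none in Daxx-WT KLS cells, against 0.907% of all protein-coding genes, and Lyz2 and Olfm4 the reverse, against 8.45%. The Hp peak was also in the CMP and GMP lists, and those of Retnlg and Cd177 were in the DKO list alone. The Pglyrp1 peak, at an internal start site, was in every list except Daxx-WT KLS. A listed promoter site with higher DKO values was found for 11 of the 20, against 14.6% of all protein-coding genes, and 1 with lower values for 1, against 15.1%. Of these, 9 rose (Adam8, Cd177, Chil3, Hp, Itgb2l, Ltb4r1, Lyz2, Pglyrp1 and Retnlg) and 1 fell (Olfm4). The share of all protein-coding genes with a promoter site past the threshold was not counted, here or for the primary granule genes. Of all DKO sites 67.3% rose and 14.9% fell. In Daxx-KO KLS cells, 2 (Chil3 and Lyz2) had a promoter site of lower values and 0 of higher values, and none passed the test. Of the primary granule genes, Ctsg gained and Mpo lost a promoter peak between Daxx-WT KLS and DKO cells, and promoter sites of Ctsg, Elane and Mpo rose. With reads scaled to the mean per window, 0 of the 9 late and 0 of the 3 primary granule promoters still rose, while Olfm4 still fell.

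Of the 10 genes, 9 had a promoter sequence in the RefSeq table. In the 250 bases before the RefSeq start site, TTGCNNAA or its reverse complement TTNNGCAA was found in 5 of 9 (S100a9, Ltf, Ngp, Lcn2 and Mmp8), against 9.56% of 32851 mouse promoters, and GAGGAA or TTCCTC in 6 of 9 (S100a8, Ltf, Lcn2, Mmp8, Cxcr2 and Itgam), against 23.3%. A match says only that the letters are present. Both motifs together were in 2.07% of all promoters, and in Ltf, Lcn2 and Mmp8 here. S100a9, Ngp and Lcn2, with the same set of peak lists, each held the C/EBP letters.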

How the data were processed

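ATAC-seq libraries of sorted mouse bone marrow cells were compared at the late neutrophil genes. Per the labels, the submitters' processing notes name CASAVA 1.8.4, cutadapt 1.13, STAR 2.5.3, bedtools and the build mm10; alignment settings are not given in the sources used here. The authors deposited 1 peak list per group. Of these, 6 hold positions only. In the other 5, the authors selected peaks by IDR and deposited its reproducibility score and the fold enrichment, a ratio over the local background. The 3 site tables come from the authors' diffReps run. Per the file headers, their signal is the reads of each library in a site divided by a constant for that library, and the sites are merged windows that passed the authors' test. Columns with the authors' fold changes and p-values were not used.

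Peaks and sites within 30 kb of a gene were taken with GENCODE M21 gene models, a promoter being 1000 bp on either side of any annotated start site. Distances are from the 5′ end of the gene, negative upstream. Sites were tested with limma 3.58.1 in R 4.3.3 on log2(scaled reads + 1), a scale that understates the change of low sites, and p-values were adjusted by the Benjamini-Hochberg method over the 413247, 407030 and 446463 windows tested by the authors; the procedure was tested on simulated data. The study's methods describe the libraries of a group as biological replicates, 2 or 3 per group. At 3 dpi and in Daxx-KO KLS cells the p-values weigh a difference against the spread between libraries, moderated over all sites. For DKO the variance was 1 common value, so the p-values there do not measure the replicate spread of a single site. Peaks of different lists counted as shared from 1 bp of overlap on, computed with pandas 2.3.3 and numpy 2.4.6 in Python 3.11.15, and plots were drawn with matplotlib 3.10.9. Sites with values per library are those in a gene or within 10 kb of it. To these was added the site of the largest fold in each direction of each table. Peaks named are those of promoters and those within 10 kb that differ between partner lists. A few farther sites and peaks were chosen after their values were seen. The alternatives were other pseudocounts, a filter on low values, scaling to the mean per window, sites in peaks, adjustment over the listed sites, a replicate block, 10 kb flanks, wider or narrower promoters, stricter IDR and overlap, lists of equal length and leaving out each library. The genes and the lists set beside them were chosen with earlier results of these data known. A marker gene of LT-HSCs is not reported here.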

Additional observations from a re-analysis of the deposited data

Results flagged for a closer look

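Sites where every Daxx-KO KLS library lay below and every DKO library above the Daxx-WT libraries at overlapping positions were picked out. Of all listed sites, 80.9% had lower values in Daxx-KO KLS cells and 72.1% higher values in DKO cells. The groups did not overlap at 99.6% and 100% of them. This pattern is therefore common to such sites, and its share over all overlapping positions was not counted. The comparisons share the 2 Daxx-WT libraries, each value is from its own comparison, and the difference between the comparisons was not tested. At the Camp promoter the log2 difference was -1.62 in Daxx-KO and 1.49 in DKO cells. At the Ngp promoter it was -1.54 and 1.96, and behind Ngp, over Klhl18, -1.28 and 1.32. At the S100a9 promoter, which is also the site 26 kb downstream of the S100a8 start, it was -1.18 and 1.73. Upstream of S100a8 and of S100a9 the values were -1.31 and 1.36, and -1.34 and 1.19. Behind Cxcr2 they were -1.28 and 1.56. None of the Daxx-KO values passed the limma test and all of the DKO values did, and with reads scaled to the mean per window none of these DKO values passed. At the Itgam promoter both differences were negative, -1.09 and -0.98, and it was not among these sites. No group had the 4 libraries that a search for outlying libraries needs.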

How the results depend on the processing

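At every site at the 10 genes the groups did not overlap. Another pseudocount, the block or a left-out library therefore could not change its direction. Scaling reads to the mean per window could have, and no site changed direction with it. Scaling reads to the mean of a window instead gave medians, on the log2 scale, of -0.08 at 3 dpi, -0.83 in Daxx-KO KLS cells and 0.67 in DKO cells, with 3 DKO sites higher and 14 lower past the threshold. Among sites that overlap a peak, 1 was left at 3 dpi and 1 in Daxx-KO KLS cells, both higher and 0 lower, so the medians turned to 0.45 and 0.86, because the sites with lower values lay outside peaks; in DKO cells 20 were higher and 8 lower, of which 15 and 2 passed. Adjusted over the listed sites alone, 1 higher and 2 lower sites passed at 3 dpi, and 2 and 24 in Daxx-KO KLS cells. Of all sites, 11454 of 11927 and 16749 of 17311 had an unadjusted limma p under 0.05, so these counts do not set the 10 genes apart. How many of all sites passed with this adjustment, in peaks, with a pseudocount of 5 or with the replicate block was not counted. With a pseudocount of 5, 6 lower sites passed in Daxx-KO KLS cells, and within 10 kb 13 lower sites were left. Within 10 kb of the genes, 31 DKO sites were higher and 5 lower, of which 31 and 2 passed. Of all DKO sites 67.3% passed with higher and 14.9% with lower values.

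Without one library at a time, the DKO calls ranged from 0 to 43 higher and 0 to 11 lower, and the median from 1.09 (without Daxx-WT replicate 1) to 1.46. Without a DKO library the group of 1 was assumed to vary like the other group. Same-numbered KLS libraries did not deviate together (correlations 0.01, 0.05 and about 0), so they share only a number; with the replicate block 4 lower sites passed in Daxx-KO KLS cells and the DKO calls stayed at 48 and 9. For the 3 dpi table alone, no paired analysis was possible, because its columns carry no replicate number. A count test was not run, since whole reads could not be recovered from the joined values.

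Promoter peaks at 3 dpi in Daxx-WT fell to 1 with 5′ ends only and to 1 at an IDR score of at least 540, and in DKO cells to 3 at that score. Peaks absent from the partner list numbered, within 10 kb, 3 in Daxx-KO and 3 in Daxx-WT LT-HSCs, 1 in Daxx-KO CMPs, 10 in Daxx-WT GMPs, 2 in Daxx-WT at 3 dpi, 5 in Daxx-KO and 1 in Daxx-WT KLS cells, and, against DKO, 12 in Daxx-WT and 16 in Daxx-KO KLS cells. With partner lists of equal length they numbered 4 and 10 in LT-HSCs, 10 and 11 in CMPs, 12 and 9 in GMPs and 3 and 7 at 3 dpi in Daxx-KO and Daxx-WT, 9 in Daxx-WT KLS cells against Daxx-KO, and, against DKO, 12 in Daxx-WT and 11 in Daxx-KO KLS cells, so that the order of the genotypes in LT-HSCs, in GMPs, at 3 dpi and in KLS cells (6 in Daxx-KO) turned with list length. An overlap of at least 0.5 of the peak gave 1 in Daxx-KO GMPs, and the stricter IDR score 5 in Daxx-KO and 2 in Daxx-WT at 3 dpi The median percentile of fold enrichment within 10 kb was 41.5 and 40.3 at 3 dpi in Daxx-WT and Daxx-KO, 37.3 and 39 in KLS cells and 26.6 in DKO cells, and among peaks of the same class 45.6 in Daxx-WT at 3 dpi and 47.4 in Daxx-KO KLS cells. Other values (201) moved by less than the spread or by less than 1.5 times. Of single sites, 114 kept their side of the threshold, 10 passed it under an alternative and 27 no longer did. With 2 or 3 libraries a group and 4.21 to 16 reads per window, the depth limits what single sites can show.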
